A study of Mus musculus with 6 samples.

Results

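Medium conditioned by 4T1 cells was compared directly with medium conditioned by 67NR cells, through the messenger RNA of lymph node fibroblasts kept in either. The members are the 2 libraries of each tumour medium, 4 of the 6 libraries in the series, and every gene with enough counts, which left 15055 of 55367 gene symbols (minimum count 10 on the scale of edgeR's filterByExpr). The recipients were fibroblastic reticular cells (FRCs) of a mouse cell line, cultured for 96 h with fresh medium every 48 h. Each medium was plain RPMI in which 4T1, 67NR or, as the control, FRC line cells had spent 24 h, and it was supplemented with 2% serum and antibiotics before use. The control libraries (2) enter here only through the shared estimate of spread, the filter and their levels, which are printed beside some of the values. Where no control level is printed, the text does not say which tumour medium departs from it. No group received medium that no cell had conditioned. Nothing says whether the libraries of a medium came from separate cultures, so p-values measure the spread between these libraries, which may be technical.

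FRCs are the fibroblasts that form the reticular network of lymph nodes, carry lymph along conduits and guide lymphocytes and monocytes with chemokines. The tumour lines 4T1 and 67NR are sister lines of one mouse mammary tumour, of which 4T1 spreads to distant organs and 67NR is known to stay at the primary site. Fibroblasts respond to tumour secretions through receptors such as TLR4, which recognises bacterial lipids and tissue damage signals together with its partners CD14 and LBP, through cytokine receptors that act by NF-kB, STAT and C/EBP factors, and through interferon receptors that act by STAT and IRF factors.

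The 4T1 libraries held 14471244 and 18214700 counts, the 67NR libraries 21797578 and 20886242, and the control libraries 19262738 and 13581510, so 1 count stood for 0.0463 to 0.0743 CPM (counts scaled to 1000000 per library). Mitochondrial transcripts took 1.32% to 2.37% of the counts. Of 11 fibroblast markers 10 passed the filter on low counts, among them Col1a1, Col3a1, Pdpn, Pdgfra, Pdgfrb, Vcam1, Ltbr and Dcn. Thy1 had 0 counts in all 6 libraries, and Col1a2 and Lum were low, at 5.2 to 15.7 and 1.41 to 7.97 CPM over the 6. The lymph node chemokine genes Ccl19, Ccl21a and Cxcl13 had 0 counts in all 6 libraries, where 0 allows up to 0.139 to 0.223 CPM. Epcam, the defining epithelial marker, had 0 counts in every library, and 17 epithelial markers summed to 4.12 and 3.49 CPM in 4T1 medium, 7.69 and 8.03 in 67NR medium and 10.6 and 9.29 in control medium, with 5 of them at 0 in all 4 tumour-medium libraries. Macrophage markers (11) summed to 5.07 and 5.45 CPM in 4T1 medium, 12.6 and 11.6 in 67NR medium and 7.06 and 8.47 in control medium, and Adgre1 stood at 0 throughout. Lymphocyte markers (10) summed to at most 0.324 CPM in any library. Endothelial markers (10) summed to 37.4 and 35.5 CPM in 4T1 medium, 28.4 and 24.9 in 67NR medium and 15 and 17.3 in control medium. Most of this was Emcn, at 34.7 and 33.4, 22.9 and 20.3, and 11.7 and 12.6 CPM, while Pecam1 stayed at or below 0.88 CPM and Prox1 and Erg were at 0 throughout. Markers of adipocytes, pericytes and muscle (11) summed to 3.79 and 3.49, 9.96 and 10.5, and 10.1 and 11.8 CPM, with Adipoq at 0. The part of these markers in the results was not tested. In bulk RNA, fewer cells expressing a gene and less of its RNA per cell cannot be told apart.

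The FRC line differed between the 2 tumour media at 6531 genes, 43.4% of those tested (edgeR quasi-likelihood test, Benjamini-Hochberg adjusted p under 0.05 over all tested genes). Of these, 3542 were higher in 4T1 medium (23.5% of tested genes) and 2989 were lower (19.9%). Every list count below is to be read beside these shares. Differences of at least 2-fold were found at 829 higher genes (5.51%) and 749 lower genes (4.98%), and differences of at least 16-fold at 70 higher and 50 lower genes. The median difference over all genes was 0.025 on the log2 scale and the median absolute difference 0.278, so most calls were of modest size. Both 4T1 libraries lay on the same side of both 67NR libraries at 10550 genes, 70.1%. Within 4T1 medium the correlation of log2 CPM across genes was 0.9921 and within 67NR medium 0.9948, against 0.9509 to 0.9533 between the media.

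**Figure D1:**
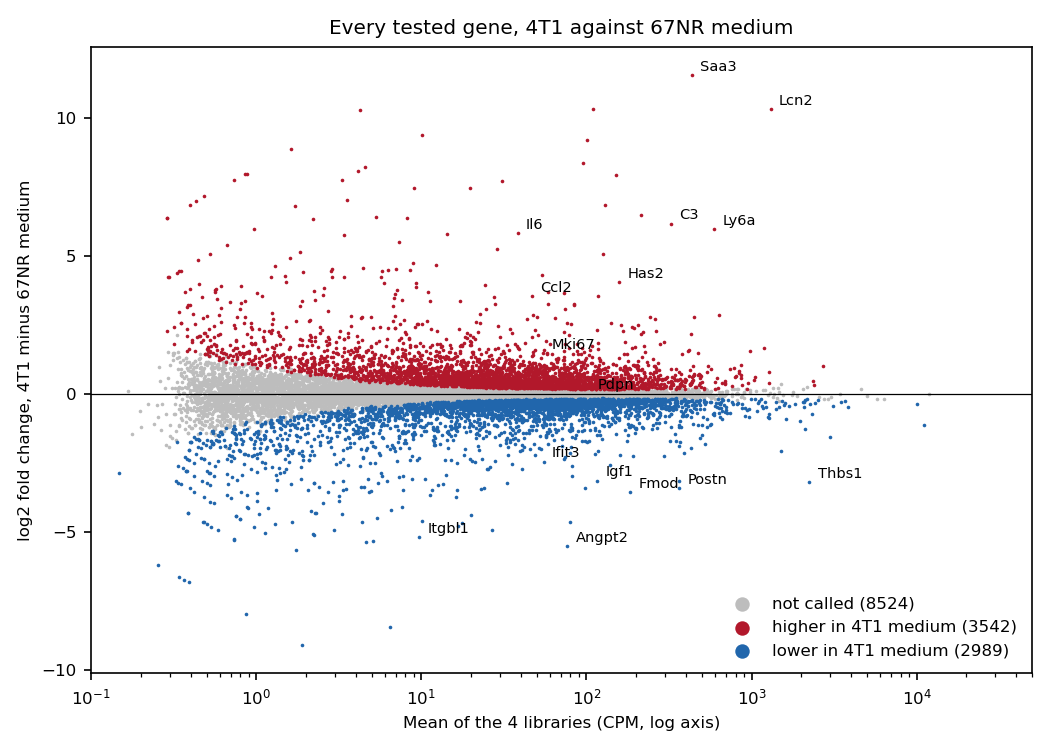
Each point is a tested gene, with its mean CPM over the 4 tumour-medium libraries (log axis) against its log2 fold change, 4T1 minus 67NR medium; red and blue points were called higher and lower. The fitted log2 fold changes run from -9.10 (Fam180a, at 0 counts in 4T1 medium) to 11.54 (Saa3), with Itga8 at -8.44, Angpt2 at -5.52 and Pdpn at 0.03.

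**Figure D2:**
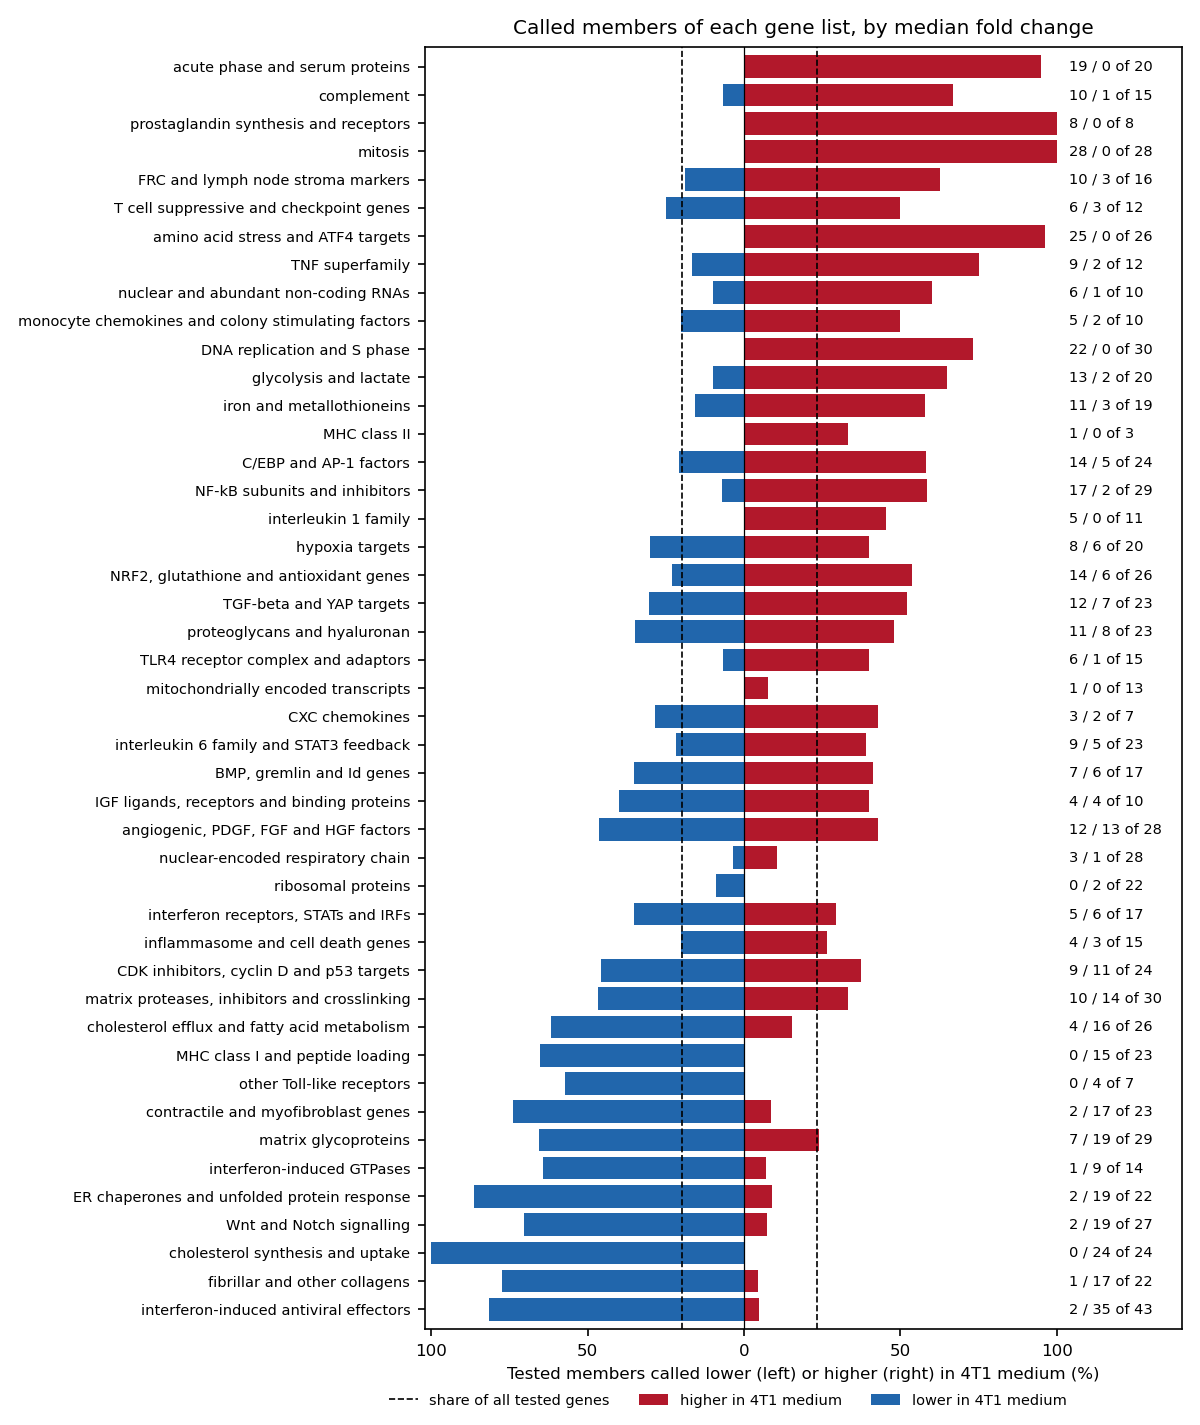
For each gene list the bars give the share of tested members called higher (right) or lower (left) in 4T1 medium, the dashed lines the same shares over all tested genes (23.5% and 19.9%), and the figures at the right the numbers called higher and lower and the number tested. Lists are ordered by median log2 fold change, from acute phase proteins (6.84) to antiviral interferon effectors (-1.23).

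Genes of the acute phase, whose secreted proteins liver and stroma release in inflammation, were higher in 4T1 medium. Of 20 tested members of that list (24 listed), 19 were higher in 4T1 medium and 0 lower, all 19 by at least 2-fold. Several passed the filter on low counts only through the 4T1 libraries, so this count describes those members and is no support of its own. Their median log2 difference was 6.84, or 4.44 with the 4 members at 0 in 67NR medium set to their lower bound, against 0.025 over all genes.

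Saa3, a serum amyloid A protein made outside the liver, stood at 876 and 861 CPM in 4T1 medium, 0.232 and 0.341 in 67NR medium and 0.260 and 0.520 in control medium. Its log2 fold change was 11.54 ± 0.14 (SE), with an edgeR adjusted p of 7.809e-15. The 67NR libraries were thus at the control level, and only the 4T1 libraries were high. The gene lies at chr7:46711998-46715700 on the minus strand and Lcn2 at chr2:32384633-32388252, also minus (GENCODE M21, GRCm38). Lcn2, which encodes the iron-siderophore binding protein lipocalin 2, reached 2563 and 2662 CPM in 4T1 medium against 1.76 and 2.34 in 67NR medium and 2.02 and 1.86 in control medium (log2 fold change 10.32 ± 0.11, edgeR adjusted p 6.289e-15). Serpina3n, a secreted inhibitor of serine proteases, was at 205 and 235 CPM against 0.185 and 0.146, with 0 and 0.149 in control medium (log2 fold change 10.31 ± 0.19). Hp, the haemoglobin scavenger haptoglobin, was at 197 and 184 CPM against 0.463 and 0.681, and at 0.311 and 0 in control medium (log2 fold change 8.37 ± 0.17). In each of these the 2 tumour media did not overlap and 67NR medium resembled control medium. Steap4, a metalloreductase of inflamed tissue, was at 55.8 and 66.2 CPM in 4T1 medium, 0.417 and 0.146 in 67NR medium and 0.104 and 0.0743 in control medium. Lrg1, a secreted leucine-rich glycoprotein, had 287 counts in the 4T1 libraries and 0 in the 67NR libraries, at least 121.6-fold higher against 3 counts over the group. Serpina3m had 108 counts against 0, at least 45.75-fold higher. Serpina3i had 678 counts against 1, a ratio of 861.7 with a 95% counting interval of 154.1 to 34080. The Saa and Serpina3 genes have near-identical neighbours, among which the authors' counting could divide reads.

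Saa3, Saa1 and Steap4 of this list and C3 of the complement list are shown as examples of upstream sequence, from RefSeq promoters on GRCm38.p6. Capitals mark the core letters TTGCNNAA, to which factors of the C/EBP family bind, on either strand.
Saa3, chr7:46715736-46715806, minus strand: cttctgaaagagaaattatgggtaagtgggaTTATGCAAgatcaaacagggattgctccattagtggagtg
Saa1, chr7:46743130-46743190, minus strand: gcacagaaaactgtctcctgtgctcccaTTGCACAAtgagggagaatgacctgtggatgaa
C3, chr17:57228156-57228216, minus strand: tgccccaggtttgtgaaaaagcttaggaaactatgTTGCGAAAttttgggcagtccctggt
Steap4, chr5:7960352-7960412, plus strand: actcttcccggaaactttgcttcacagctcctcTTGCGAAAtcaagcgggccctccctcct
The capitals begin 99 bases before the start site in Saa3, 182 in Saa1, 45 in C3 and 87 in Steap4. Of the 20 acute phase members, 17 had a promoter of 300 bases in the table (250 before and 50 after the start), and 10 of these 17, 58.8%, held the letters, against 10.7% of all 27025 promoters. None of the 10 overlapped another motif searched. The core GGGANNNTC of NF-kB sites was in 2 of the 17, 11.8%, against 14.4% of all promoters, and the core TTCNNNGAA of STAT sites in 5, 29.4%, against 8.36%. These shares describe the listed members, several of which passed the filter only through the 4T1 libraries, and not the 4T1 response at large. Of the complement members only 60% had a promoter in the table. Among all genes called at least 2-fold higher it was 69.6%. No share is therefore read of either. These are matches of letters and say nothing about binding.

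Complement genes were higher as well, at 10 of 15 tested members, with 1 lower (2 lower without 4T1 replicate 2) and a median log2 difference of 1.68. C3, the central component that all activation routes cleave, was at 592 and 691 CPM in 4T1 medium, 8.94 and 8.86 in 67NR medium and 3.37 and 4.61 in control medium (log2 fold change 6.17 ± 0.11, edgeR adjusted p 4.086e-13). C1s1, a protease of the classical route, was at 318 and 330 CPM against 63.6 and 61.4, with 20.7 and 23.7 in control medium. For C3 and C1s1 the order was 4T1, then 67NR, then control, with no overlap between any 2 media. C4b, whose product follows C1s in the cascade, was at 81.7 and 86.0 CPM against 11.8 and 11.5, and its near-identical neighbour C4a at 15.5 and 16.6 against 3.52 and 2.04. Cd59a, which blocks the membrane attack complex, was the lower member, at 10.0 and 9.31 CPM against 14.1 and 15.3 (log2 fold change -0.61 ± 0.12).

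Cytokine and chemokine genes differed in both directions, with Il6, Ccl9 and Cxcl5 far higher in 4T1 medium. Il6, the cytokine that drives the acute phase response, was at 69.8 and 81.0 CPM in 4T1 medium, 1.48 and 1.17 in 67NR medium and 1.82 and 1.93 in control medium (log2 fold change 5.82 ± 0.14, edgeR adjusted p 7.288e-12). Ccl2, the main monocyte attractant, was at 80.2 and 92.8 CPM, 7.23 and 7.74, and 12.5 and 15.5 in the same order of media (log2 fold change 3.53 ± 0.12, edgeR adjusted p 1.109e-10). Ccl7, a neighbouring gene whose product binds the same receptor, was at 146 and 158, 15.4 and 17.1, and 25.4 and 26.6 CPM (log2 fold change 3.22 ± 0.08). For Ccl2 and Ccl7 the 67NR libraries were the lowest of the 6 and the control libraries lay between the tumour media. Ccl9 was at 251 and 239 CPM against 7.13 and 7.54, with 4.57 and 5.35 in control medium. Of 10 tested monocyte chemokines and colony stimulating factors, 5 were higher and 2 lower (1 lower without 67NR replicate 2). Csf1, the growth factor of macrophages, was at 577 and 596 CPM against 532 and 572, with an edgeR adjusted p of 0.342. Cx3cl1, a membrane-bound chemokine, was lower at 41.4 and 46.5 CPM against 59.2 and 55.6.

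Among 7 tested CXC chemokines 3 were higher and 2 lower. The neutrophil attractant Cxcl5 was at 50.2 and 61.0 CPM in 4T1 medium against 1.48 and 1.41 in 67NR medium and 0.675 and 1.04 in control medium (log2 fold change 5.26 ± 0.16). Cxcl1, which acts on the same receptor, was at 424 and 454 CPM against 93.5 and 88.7, with 80.5 and 79.6 in control medium (log2 fold change 2.27 ± 0.07, edgeR adjusted p 3.831e-11). Cxcl15 went the other way, at 1.62 and 0.926 CPM against 11.5 and 10.7. Members of this list thus lay on both sides. For the monocyte chemokines, the 2 lower of 10 were near the 19.9% lower over all tested genes. Of 11 tested genes of the interleukin 1 family 5 were higher and 0 lower (2 lower without 4T1 replicate 1), 45.5% called, near the 43.4% of all tested genes. Among them were the alarmin Il33 at 275 and 302 CPM against 95.2 and 86.7 and the receptor Il1r1 at 140 and 169 against 62.0 and 61.5.

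Of the TLR4 receptor complex, the ligand carriers Lbp and Cd14 were higher in 4T1 medium. Lbp, which delivers lipopolysaccharide, was at 240 and 273 CPM in 4T1 medium, 1.48 and 3.02 in 67NR medium and 1.09 and 0.892 in control medium (log2 fold change 6.84 ± 0.16, edgeR adjusted p 5.661e-12). Cd14, the co-receptor that hands it on, was at 12.7 and 13.9 CPM against 0.834 and 1.12, with 1.61 and 1.11 in control medium (log2 fold change 3.77 ± 0.21). Tlr4 itself was at 36.8 and 46.7 CPM against 26.3 and 29.8, with 25.9 and 24.1 in control medium (log2 fold change 0.58 ± 0.11, edgeR adjusted p 0.0008706). The receptor gene was thus higher in both 4T1 libraries, by 1.49-fold, a small difference beside those of its carriers. Ly96, of the same receptor complex, was not called, at a mean of 5.271 CPM against 4.54 (log2 fold change 0.21). The adaptor Myd88 was at 57.3 and 53.6 CPM against 36.2 and 32.9, and Ticam1, the adaptor of the interferon-inducing branch, was lower at 22 and 24.0 against 36.0 and 35. In this list 6 of 15 tested genes were higher and 1 lower (3 lower without 4T1 replicate 2), with a median of 0.17. At 46.7% called, the list as a whole was near the 43.4% of all tested genes. Of 7 other Toll-like receptor genes 0 were higher and 4 lower, among them Tlr6, at 3.45 and 3.54 CPM against 8.15 and 7.69, and Tlr3, at 39.3 and 37.9 against 50.6 and 53.4.

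**Figure D3:**
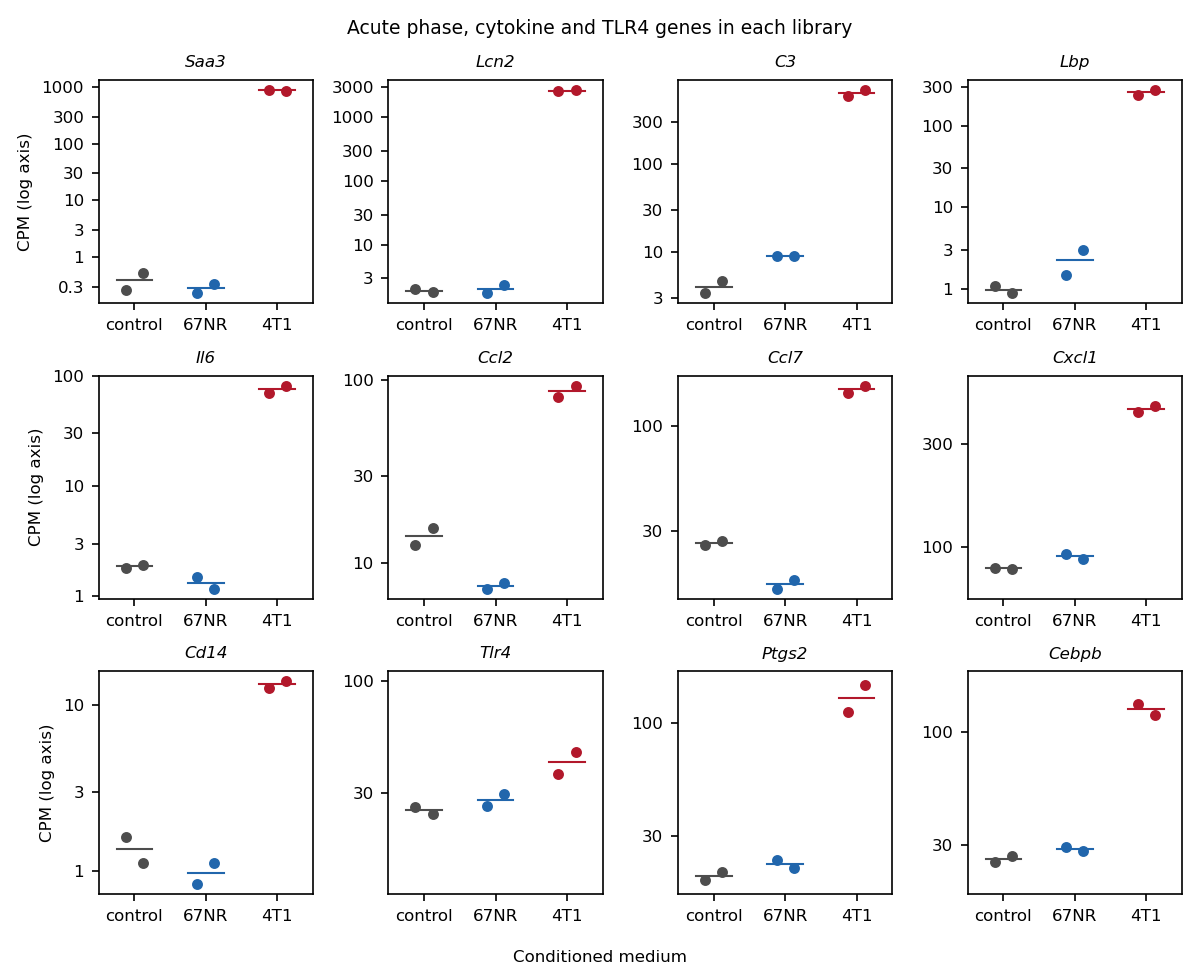
CPM (log axis) of 12 genes in each library by conditioned medium; points are libraries, lines the mean of the 2. In every panel both 4T1 libraries lie above both 67NR libraries, from 36.8 and 46.7 against 26.3 and 29.8 CPM for Tlr4 to 876 and 861 against 0.232 and 0.341 CPM for Saa3.

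Signalling genes downstream of these receptors were more often higher than lower in 4T1 medium. Of 29 tested NF-kB subunits and inhibitors 17 were higher and 2 lower (5 lower without 4T1 replicate 2), with a median of 0.33. Among the higher ones were the atypical inhibitors that shape NF-kB output, Bcl3 at 46.8 and 54.8 CPM against 5.65 and 4.87 (log2 fold change 3.27 ± 0.12) and Nfkbiz at 127 and 151 against 23.2 and 24.3. Zc3h12a, an endonuclease that degrades cytokine transcripts, was at 43.9 and 54.6 CPM against 8.29 and 9.68. Tnfaip3, the deubiquitinase A20 and a classical NF-kB target, was lower, at 75.2 and 91.1 CPM in 4T1 medium, 152 and 157 in 67NR medium and 188 and 196 in control medium (log2 fold change -0.89 ± 0.08). The NF-kB list was thus mostly higher, with its 2 lower members of 29 under the 19.9% lower over all tested genes. Of 23 tested genes of the interleukin 6 family and STAT3 feedback 9 were higher and 5 lower. Their lower share was near the 19.9% of all tested genes. The STAT3 target and inhibitor Socs3 was at 211 and 224 CPM against 19.6 and 17.5, the kinase gene Jak2 at 386 and 456 against 60.0 and 61.5, and the growth hormone feedback gene Socs2 was lower, at 11.6 and 10.7 against 27.2 and 29.2.

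C/EBP and AP-1 factors were higher at 14 of 24 tested members and lower at 5 (3 lower without either 67NR library). Cebpd, an acute phase transcription factor, was at 373 and 351 CPM in 4T1 medium, 78.2 and 73.4 in 67NR medium and 88.7 and 100 in control medium (log2 fold change 2.26 ± 0.08). Cebpb, its partner, was at 135 and 120 CPM against 29.4 and 28.0, with 25 and 26.6 in control medium. Cebpa, the family member of adipocytes and liver, was at 3.04 and 3.54 CPM against 5.37 and 5.01 (log2 fold change -0.65 ± 0.20). This call was lost without 4T1 replicate 1, without either 67NR library and under the DESeq2 Wald test (adjusted p 0.0784). Within AP-1, Junb was higher at 559 and 544 CPM against 206 and 201 and Jun lower at 38.5 and 41.9 against 75.4 and 73.4. The shear-responsive factor Klf2 was lower at 17.8 and 19.1 CPM against 57.0 and 54.3. The 5 lower members of 24 were near the 19.9% lower over all tested genes.

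All 8 tested genes of prostaglandin synthesis and reception were higher in 4T1 medium, with a median of 1.60. Ptgs2, the inducible cyclooxygenase, was at 113 and 149 CPM against 23 and 21.2, with 18.6 and 20.3 in control medium (log2 fold change 2.57 ± 0.12, edgeR adjusted p 2.725e-09). Ptgs1, the constitutive enzyme, was at 73.7 and 77.6 CPM against 17.6 and 18.2, and the prostaglandin transporter Slco2a1 at 318 and 380 against 77.9 and 78.6. The receptor Ptger4 was at 10.8 and 15.7 CPM against 3.01 and 2.92. Among 12 tested checkpoint and T cell suppressive genes 6 were higher and 3 lower, against 23.5% higher and 19.9% lower over all tested genes. The lower share of this list was thus near that of all genes. Nectin2, a ligand of the inhibitory receptor TIGIT, was at 143 and 130 CPM against 40.8 and 38.1, whereas the galectin gene Lgals1 was lower at 975 and 962 against 1571 and 1600. In the TNF superfamily 9 of 12 tested genes were higher and 2 lower, with Tnfsf11 (RANK ligand) at 8.65 and 8.50 CPM against 1.71 and 1.51 and the death receptor Fas at 131 and 131 against 44.3 and 45.1.

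Interferon-induced genes went the opposite way. Of 43 tested antiviral effectors 35 were lower in 4T1 medium and 2 higher, with a median of -1.23, and 31 were lower without 4T1 replicate 2. Ifit1, a sensor of foreign RNA ends, was at 35.4 and 17.1 CPM in 4T1 medium, 104 and 77.8 in 67NR medium and 7.32 and 8.62 in control medium (log2 fold change -1.81 ± 0.22, edgeR adjusted p 2.476e-05). Ifit3, its partner, was at 21.9 and 12.6 CPM, 106 and 79.5, and 15.5 and 13.6 in the same order (log2 fold change -2.45 ± 0.19, edgeR adjusted p 3.244e-07). Usp18, which removes ISG15 and limits the receptor, was at 4.39 and 1.85 CPM, 16.4 and 12.3, and 1.14 and 1.26. The 67NR libraries were the highest of the 6 for all 3 genes, and 4T1 replicate 1 stood above replicate 2. Of 14 tested interferon-induced GTPases 9 were lower and 1 higher. Igtp, which acts on vacuoles of intracellular parasites, was at 11.2 and 8.82 CPM against 25.2 and 20.2, with 3.84 and 3.57 in control medium. The higher one, the very large GTPase gene Gvin1, was at 57.2 and 59.2 CPM in 4T1 medium, 19 and 18.2 in 67NR medium and 4.88 and 5.28 in control medium (log2 fold change 1.64 ± 0.08). Zbp1 and Ifitm3 were the 2 effectors that were higher. Zbp1 was at 12.9 and 11.4 against 7.04 and 7.88 CPM and Ifitm3 at 485 and 418 against 338 and 333. The call of Zbp1 was lost without 67NR replicate 1 and under the DESeq2 Wald test (adjusted p 0.5). The Ifit genes lie next to near-identical copies, so their single values are uncertain.

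Upstream windows of Ifit1, Ifit3, Isg15 and Gbp3 are shown as examples of upstream sequence. Capitals mark the core GAAANNGAA of the interferon-stimulated response element, on either strand and with overlapping copies joined.
Ifit1, chr19:34640759-34640829, plus strand: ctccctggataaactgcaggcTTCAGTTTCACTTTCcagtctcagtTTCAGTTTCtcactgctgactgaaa
Ifit3, chr19:34583354-34583444, plus strand: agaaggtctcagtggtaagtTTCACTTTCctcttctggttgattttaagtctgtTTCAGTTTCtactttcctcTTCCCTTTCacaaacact
Isg15, chr4:156200863-156200918, minus strand: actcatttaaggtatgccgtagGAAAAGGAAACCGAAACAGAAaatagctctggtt
Gbp3, chr3:142559974-142560019, plus strand: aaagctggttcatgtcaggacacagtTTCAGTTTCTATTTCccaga
Ifit1, Ifit3 and Isg15 hold 3 matches each and Gbp3 holds 2. Isg15, the ubiquitin-like modifier, was at 21.2 and 12.1 CPM against 55.7 and 49.7, and Gbp3, a guanylate binding protein, at 7.50 and 3.65 against 21.2 and 15.4. Among all 27025 promoters 8.57% held the core. Only 31 of the 43 effectors (72.1%) had a promoter in the table, under the 80% needed, so no share of the list is read. Here and in the promoters below, these are matches of letters, and whether any factor acts there was not tested.

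Several factors that carry interferon signals differed with their targets. Irf7, the amplifier of type I interferon, was at 9.46 and 5.50 CPM in 4T1 medium, 24.6 and 22.6 in 67NR medium and 3.69 and 4.09 in control medium (log2 fold change -1.68 ± 0.17, edgeR adjusted p 4.906e-06). Irf9, the DNA binding part of the complex that type I interferon assembles, was at 46.0 and 37.2, 69.1 and 65.9, and 26.5 and 23.3 CPM in the same order. The receptor chain Ifnar2 was higher instead, at 96.5 and 95.9 CPM against 48.5 and 49.7, as was the DNA sensing adaptor Sting1, at 53.5 and 60.3 against 23.2 and 20.6. Of 17 tested receptors, STATs and IRFs 5 were higher and 6 lower, against 23.5% higher and 19.9% lower over all tested genes. At a median of -0.04 this list had no common direction. MHC class I and peptide loading genes were lower at 15 of 23 tested members and higher at 0, with a median of -0.41. B2m, the light chain of all class I molecules, was at 306 and 289 CPM against 634 and 662, with 428 and 438 in control medium (log2 fold change -1.12 ± 0.06, edgeR adjusted p 1.749e-08), and the loading factor Tapbp at 94.4 and 90.8 against 168 and 167.

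The extracellular matrix programme was lower in 4T1 medium for most structural proteins. Of 22 tested collagens 17 were lower and 1 higher (median -0.83), and of 29 matrix glycoproteins 19 were lower and 7 higher (median -0.45). Col1a1, the main fibrillar collagen chain, was at 6717 and 7104 CPM in 4T1 medium, 15610 and 14830 in 67NR medium and 14100 and 13540 in control medium (log2 fold change -1.14 ± 0.07). Col8a1, a short-chain network collagen, was at 137 and 153 CPM against 642 and 626, with 367 and 380 in control medium. Periostin (Postn), which crosslinks collagen, was at 63.7 and 61.9 CPM, 711 and 614, and 529 and 494 (log2 fold change -3.40 ± 0.09, edgeR adjusted p 9.567e-12). For Col1a1, Col8a1 and Postn the 4T1 libraries were the lowest of the 6. Tenascin C (Tnc) was at 14.7 and 19 CPM against 182 and 176, with 219 and 246 in control medium, and thrombospondin 1 (Thbs1) at 381 and 500 against 3923 and 4144, with 5194 and 5359. Elastin (Eln) was at 1.35 and 1.31 CPM against 37.6 and 29.9, with 16.9 and 18.8 in control medium (log2 fold change -4.66 ± 0.18). Exceptions were osteopontin (Spp1), higher at 7.91 and 8.99 CPM against 0.324 and 0.389, fibulin 1 (Fbln1) at 119 and 120 against 39.0 and 37.2, and Col18a1, the source of endostatin, at 86.2 and 89.0 against 62.6 and 56.4. Fibronectin (Fn1) was at 10610 and 13100 CPM against 11000 and 12830, with an edgeR adjusted p of 0.9613 and overlapping libraries.

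Proteoglycans and hyaluronan genes were divided, with 11 of 23 tested members higher and 8 lower. Has2, which makes high-mass hyaluronan, was at 277 and 320 CPM in 4T1 medium, 20.0 and 15.6 in 67NR medium and 17.1 and 18.1 in control medium (log2 fold change 4.06 ± 0.11, edgeR adjusted p 1.722e-11). Versican (Vcan), a hyaluronan binding proteoglycan, was at 602 and 796 CPM against 146 and 165, and the joint lubricant Prg4 at 16.1 and 19.7 against 0.0926 and 0.0973. Of the small leucine-rich proteoglycans, fibromodulin (Fmod) was lower at 29.7 and 27.6 CPM against 351 and 330 and osteoglycin (Ogn) at 177 and 172 against 684 and 681. Decorin (Dcn), of the same family, was higher at 195 and 185 CPM against 130 and 132, and so was biglycan (Bgn) at 55.6 and 61.4 against 44.9 and 40.1. This family was thus divided too. Matrix proteases, inhibitors and crosslinking enzymes had 10 of 30 tested members higher and 14 lower (6 higher without 67NR replicate 1). Timp1, the inducible metalloprotease inhibitor, was at 770 and 799 CPM against 115 and 110, and the collagen processing enhancer Pcolce at 435 and 446 against 768 and 731.

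Contractile genes were lower at 17 of 23 tested members and higher at 2. Acta2, the smooth muscle actin of myofibroblasts, was at 2739 and 2565 CPM in 4T1 medium, 3710 and 3476 in 67NR medium and 3472 and 3607 in control medium (log2 fold change -0.44 ± 0.07, edgeR adjusted p 0.0001603). Mylk, the myosin light chain kinase, was at 23.3 and 24.0 CPM against 50.4 and 56.2. Most differences in this list were thus under 2-fold, with 3 lower members beyond it. Fap, a protease of activated fibroblasts, was low throughout, at 0.406 and 0.218 CPM against 3.01 and 2.87, with 0.519 and 0.372 in control medium. Of 16 tested FRC and lymph node stroma markers 10 were higher and 3 lower. Ly6a (Sca-1) was at 1145 and 1186 CPM against 17.7 and 19.4, with 21.2 and 19 in control medium (log2 fold change 5.98 ± 0.09, edgeR adjusted p 4.603e-14), and the adhesion molecule Vcam1 at 608 and 647 against 209 and 207. Pdgfrb, the receptor of the growth factor PDGF-BB, was lower at 203 and 233 CPM against 521 and 490. Pdpn, the FRC surface marker podoplanin, was at 101 and 110 CPM against 97.0 and 109, with overlapping libraries and an edgeR adjusted p of 0.7941. The Ly6 genes are close copies of each other, so their single values are uncertain.

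Growth factor and morphogen genes differed in both directions. Transforming growth factor ligands were lower, Tgfb3 at 40.0 and 39.3 CPM against 248 and 225, with 180 and 170 in control medium (log2 fold change -2.58 ± 0.08), and Tgfb2 at 42.2 and 46.0 against 145 and 143. The receptor Tgfbr2 was at 83.8 and 104 CPM against 259 and 271, while Ltbp2, a matrix protein of the latent binding family, was higher at 21.2 and 26.2 against 1.34 and 0.487. In the list of TGF-beta and YAP targets 12 of 23 tested genes were higher and 7 lower. Igf1, the insulin-like growth factor, was at 22.9 and 24.4 CPM against 209 and 210, with 155 and 156 in control medium (log2 fold change -3.14 ± 0.07, edgeR adjusted p 4.201e-12). Of 28 tested angiogenic, PDGF, FGF and HGF genes 12 were higher and 13 lower. Angpt2 and Angpt1, ligands of the endothelial receptor TIE2, were both lower, at 3.58 and 3.0 CPM against 151 and 149 and at 0.608 and 0.708 against 12.1 and 12.9. Vegfc, which drives lymphatic growth, was higher at 20.6 and 20.5 CPM against 4.31 and 4.09, Vegfa at 226 and 220 against 91.1 and 89.9, and Hgf at 6.15 and 6.59 against 1.20 and 1.12. The lower genes of this list thus include both angiopoietins and the higher ones the VEGF ligands Vegfa and Vegfc. Wnt and Notch genes were lower at 19 of 27 tested members and higher at 2 (median -0.77), with the Notch target Hey2 at 1.96 and 1.80 CPM against 20.7 and 21.7 and the Wnt inhibitor Sfrp2 at 1530 and 1484 against 4489 and 4436.

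The largest negative differences included genes outside these lists. Integrin alpha 8 (Itga8) had 1 count in the 4T1 libraries and 544 in the 67NR libraries, a ratio of 428.0 in favour of 67NR medium with a 95% counting interval of 76.5 to 16940. Pgm5, a protein of muscle and focal adhesions, was at 6.89 and 5.28 CPM against 155 and 148, with 66.8 and 64.4 in control medium. Cmklr1, the receptor of the attractant chemerin, was at 1.28 and 2.29 CPM against 40.3 and 36.5, with 33.3 and 29.9 in control medium. Fam180a had 0 counts in the 4T1 libraries and 160 in the 67NR libraries, at least 41.96-fold lower in 4T1 medium, and the mast cell protease gene Mcpt4 0 against 73 counts, at least 19.15-fold lower. In these 5 genes the control libraries also stood above the 4T1 libraries.

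Cell cycle genes were higher in 4T1 than in 67NR medium, without reaching the control level in the genes shown. All 28 tested mitosis genes were higher, 27 by at least 2-fold, with a median of 1.38, and so were 22 of 30 replication and S phase genes, with 0 lower (2 lower without 4T1 replicate 2) and a median of 0.69. Ccnb1, the cyclin of mitotic entry, was at 13.4 and 17.3 CPM in 4T1 medium, 4.77 and 3.80 in 67NR medium and 25.1 and 28.8 in control medium (log2 fold change 1.84 ± 0.16, edgeR adjusted p 1.19e-06). Mki67, the proliferation antigen Ki-67, was at 59.1 and 102 CPM, 26.0 and 32.0, and 144 and 153 (log2 fold change 1.48 ± 0.19, edgeR adjusted p 3.083e-05). Mcm10, a replication initiation factor, was at 7.57 and 7.63 CPM, 1.99 and 2.63, and 13.7 and 13.2. The control libraries were the highest and the 67NR libraries the lowest for all 3. Among CDK inhibitors, cyclin D and p53 targets 9 of 24 tested genes were higher and 11 lower (5 higher without 67NR replicate 1). The CDK inhibitor Cdkn1b was lower at 109 and 109 CPM against 210 and 206, with 122 and 144 in control medium, Cdkn1a slightly higher at 172 and 162 against 134 and 133, and the stress gene Gadd45a higher at 132 and 92.2 against 17.6 and 15.9.

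Windows upstream of Top2a, Cdc20 and Mki67 are shown for the motifs that mitosis promoters share. Capitals mark the cell cycle homology region core TTTGAA and, in Top2a and Cdc20, the CCAAT box, on either strand.
Top2a, chr11:99024199-99024299, minus strand: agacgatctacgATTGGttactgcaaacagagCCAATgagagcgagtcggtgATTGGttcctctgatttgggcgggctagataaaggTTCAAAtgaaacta
Cdc20, chr4:118437353-118437418, minus strand: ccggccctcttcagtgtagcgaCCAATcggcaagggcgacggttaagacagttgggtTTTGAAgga
Mki67, chr7:135716459-135716509, minus strand: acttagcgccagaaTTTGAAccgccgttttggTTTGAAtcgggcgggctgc
Top2a, which untangles chromosomes, was at 102 and 140 CPM against 43.5 and 46.7, and Cdc20, which starts anaphase, at 29.8 and 30.3 against 10.7 and 11.2. Of 24 mitosis promoters in the table (28 genes), 19 held the TTTGAA core, 79.2%, against 18.1% of all 27025 promoters, and 20 held CCAAT, 83.3%, against 37.9%. Both were present in 17 of the 24, against 7.05% of all promoters, and no match overlapped another motif searched. Several of the TTTGAA matches lay after the start site, and the Kif2c promoter started 3867 bases from the GENCODE start of the gene.

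**Figure D4:**
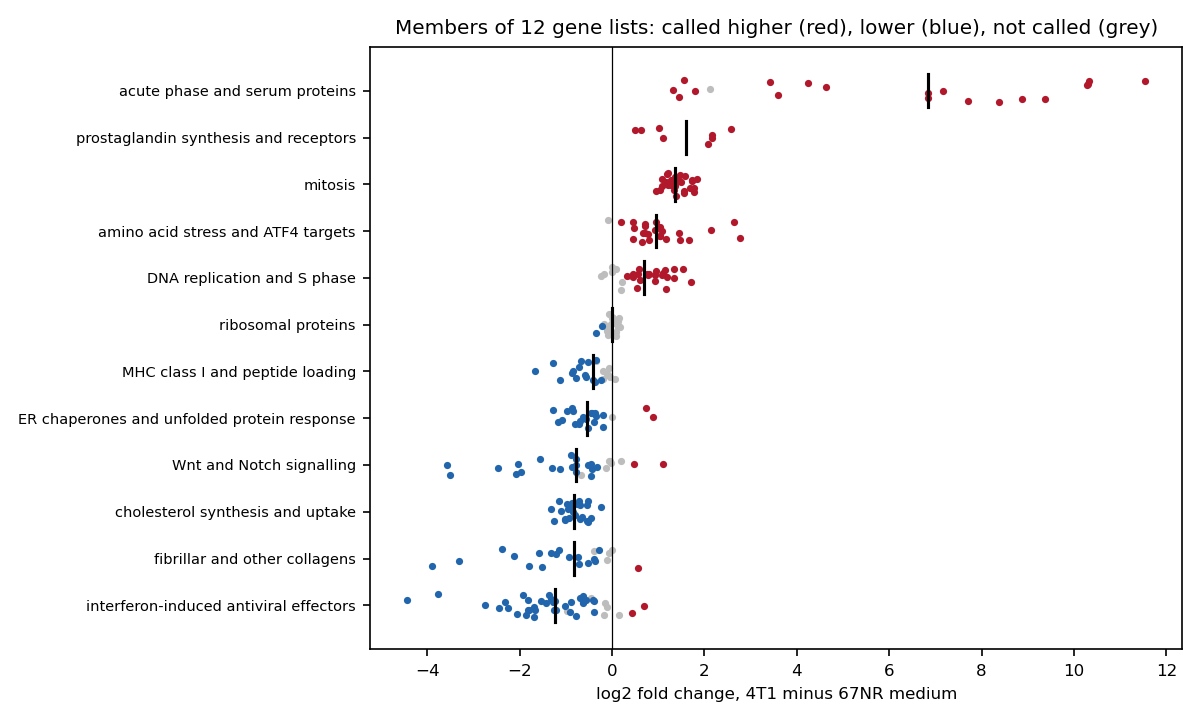
Every tested member of 12 lists by its log2 fold change, 4T1 minus 67NR medium; points are genes coloured by call and bars the list medians. Mitosis genes gather around 1.38 with all 28 called higher, cholesterol genes around -0.82 with all 24 called lower, and ribosomal protein genes around 0.00.

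Metabolic and stress programmes separated the media in several directions. Amino acid stress genes under the factor ATF4 were higher at 25 of 26 tested members and lower at 0, with a median of 0.94. Cth, which makes cysteine by transsulphuration, was at 86.8 and 88.7 CPM in 4T1 medium, 12.6 and 13.0 in 67NR medium and 16.6 and 17.9 in control medium (log2 fold change 2.78 ± 0.08, edgeR adjusted p 3.831e-11). Stc2, a secreted stanniocalcin, was at 19.4 and 18 CPM against 3.29 and 2.68, and Atf3, a stress factor induced by ATF4, at 23.9 and 22.2 against 7.13 and 7.30. Chac1, which degrades glutathione, was at 73.8 and 66.8 CPM against 36.0 and 32.7, and Slc7a11, the cystine importer, at 63.9 and 75.0 against 43.1 and 45.2, with 59.5 and 63.7 in control medium. Slc7a11 in control medium was thus near its level in 4T1 medium, whereas Cth in control medium was near 67NR medium.

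The ATF4 binding letters are shown in 3 of these promoters, in capitals for the core TGATGNAA of the amino acid response element on either strand.
Slc7a11, chr3:50443643-50443698, minus strand: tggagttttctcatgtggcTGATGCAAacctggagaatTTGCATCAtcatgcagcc
Fgf21, chr7:45615605-45615650, minus strand: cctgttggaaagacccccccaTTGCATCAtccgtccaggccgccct
Chac1, chr2:119351027-119351072, plus strand: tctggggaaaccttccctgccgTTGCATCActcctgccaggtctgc
Slc7a11 holds 2 matches in opposite directions. Fgf21, a stress hormone gene, was low, at 0.946 and 0.926 CPM against 0.371 and 0.292. The core was found in 7 of 24 promoters of the list, 29.2%, against 4.09% of all 27025 promoters, with no overlap with another motif searched. Among the 7, the promoters of Atf3 and Nupr1 started 34706 and 5391 bases from the GENCODE start of the gene. In Trib3 the match lay after the start site.

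Endoplasmic reticulum chaperones went against the ATF4 genes, with 19 of 22 tested members lower, 2 higher and a median of -0.54. The calcium binding chaperone Calr was at 1224 and 1227 CPM in 4T1 medium, 2956 and 2976 in 67NR medium and 2294 and 2305 in control medium (log2 fold change -1.28 ± 0.06, edgeR adjusted p 3.629e-09), and the disulphide isomerase Pdia4 at 247 and 246, 491 and 481, and 373 and 373. The sensors Ern1 and Atf6 were the 2 higher members, Ern1 at 96.6 and 103 CPM against 53.5 and 54.8 and Atf6 at 85.3 and 91.1 against 51.7 and 53.5. Sensors and chaperones of the list thus differed in opposite directions. CCAAT boxes were in 17 of its 19 promoters in the table, 89.5%, against 37.9% of all promoters and 83.3% of the mitosis promoters.

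Cholesterol synthesis and uptake genes were lower at all 24 tested members, 6 by at least 2-fold, with a median of -0.82. Idi1, which isomerises the isoprenoid unit, was at 42.6 and 47.4 CPM in 4T1 medium, 108 and 117 in 67NR medium and 119 and 144 in control medium (log2 fold change -1.32 ± 0.09, edgeR adjusted p 1.775e-07). Fdps, which joins these units, was at 9.33 and 9.15 CPM against 20.1 and 20.9, and Stard4, a cholesterol carrier, at 37.5 and 43.0 against 84.6 and 87.8. The 67NR libraries were below the control libraries for these genes, and the 4T1 libraries were lower still. Among 26 tested genes of cholesterol efflux and fatty acid metabolism 16 were lower and 4 higher (2 higher without 67NR replicate 1), with Fabp5, a fatty acid carrier, at 35.8 and 32.4 CPM against 116 and 140 and Dgat2, which completes triglycerides, at 16.9 and 15.8 against 2.73 and 2.97.

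Glycolysis genes were higher at 13 of 20 tested members and lower at 2 (0 lower without either 67NR library, 1 without 4T1 replicate 2 or either control library). Hk2, the inducible hexokinase, was at 83.4 and 82.8 CPM in 4T1 medium, 19.4 and 18.4 in 67NR medium and 31.2 and 34.6 in control medium (log2 fold change 2.14 ± 0.08), and Slc16a1, a lactate transporter, at 90.3 and 88.8 against 24.0 and 23.3. Hypoxia targets were divided, with 8 of 20 tested members higher and 6 lower (5 higher without 67NR replicate 2). Hif1a, the hypoxia factor itself, was at 576 and 658 CPM against 218 and 207, and the hypoxia-induced gene Ndrg1 was lower at 126 and 108 against 276 and 288. Hypoxia genes as a whole therefore had no common direction.

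Nuclear genes of the respiratory chain showed few calls, 3 higher and 1 lower of 28, with a median of 0.01 (5 higher without 4T1 replicate 2, 6 lower without 4T1 replicate 1, 1 higher without either 67NR library, and 0 lower without 4T1 replicate 2, either 67NR library or control replicate 2). Ribosomal protein genes had 2 lower and 0 higher of 22, with a median of 0.00 (7 lower without 4T1 replicate 1, 8 higher without 4T1 replicate 2, 1 lower without either 67NR library). Both lists lay below the 43.4% of all genes.

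Iron and metallothionein genes were higher at 11 of 19 tested members and lower at 3. Besides Lcn2, the zinc and iron importer Slc39a14 was at 422 and 483 CPM against 68.4 and 68.5, and the metallothionein Mt2 at 13.9 and 14.1 against 1.02 and 1.61. Slc40a1, the iron exporter ferroportin, was lower at 3.85 and 2.29 CPM against 16.3 and 15.2, with 12.7 and 11.4 in control medium (log2 fold change -2.39 ± 0.18). The importer and the exporter thus lay on opposite sides. Antioxidant genes were higher at 14 of 26 tested members and lower at 6, against 23.5% higher and 19.9% lower over all tested genes. The lower share was thus near that of all genes, and the higher count fell without 67NR replicate 2. The list median was 0.25, and in each direction 1 called member differed by at least 2-fold. The mitochondrial dismutase Sod2 was higher at 179 and 187 CPM against 53.3 and 49.7, with 57.8 and 55.4 in control medium. The transferase Gstm1 was lower at 81.1 and 89.0 against 150 and 153. Of 15 tested inflammasome and cell death genes 4 were higher and 3 lower (1 lower without 4T1 replicate 2 or either 67NR library), 46.7% called, near the 43.4% of all tested genes. Casp4, the sensor of cytosolic lipopolysaccharide, was at 38.4 and 41.0 CPM against 5.0 and 5.69. The nuclear RNA Neat1, a scaffold of paraspeckles, was at 382 and 360 CPM against 181 and 160, with 127 and 136 in control medium.

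**Figure D5:**
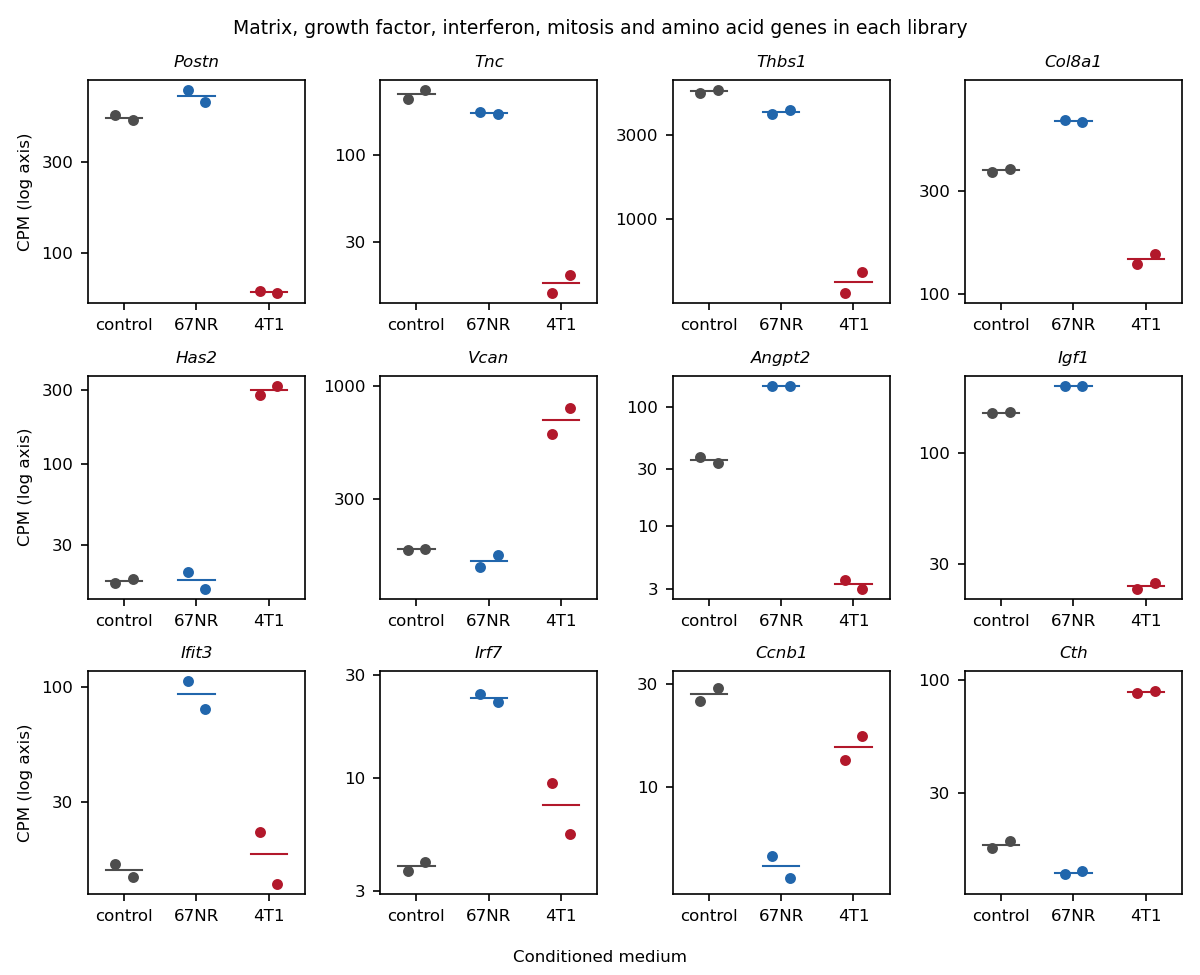
CPM (log axis) of 12 genes in each library by conditioned medium; points are libraries, lines the mean of the 2. The 4T1 libraries are the lowest for Postn, Tnc, Thbs1, Col8a1, Angpt2 and Igf1 and the highest for Has2, Vcan and Cth, the 67NR libraries are the highest for Ifit3 and Irf7, and Ccnb1 runs from control (25.1 and 28.8) through 4T1 (13.4 and 17.3) to 67NR medium (4.77 and 3.80).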

How the data were processed

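The authors deposited whole-number, unnormalized counts for each gene symbol of 6 directional poly(A) libraries. Subread, DESeq2 1.32.0 and mm10 appear in the submitters' processing notes. For the counting step, neither annotation nor strand setting is given in the sources used here, which leaves genes that overlap or run antisense uncertain, along with close paralogs (C4a and C4b, Ifit3 and Ifit3b, and the Saa, Serpina3, Ly6, Oas, H2, Wfdc and Sprr2 genes).

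Genes of the unfiltered table were filtered in edgeR 4.0.16 (filterByExpr: at least 10 counts, 15 in total) and scaled by TMM, and CPM use those totals. At the edge of the filter (0.534 CPM), Gm17415 was just inside, its second highest library at 0.549, and Gm37285 just outside at 0.5267. A quasi-likelihood fit of all 6 libraries (3 residual and 9.62 prior degrees of freedom, prior count 0.125) gave 4T1 minus 67NR medium, with Benjamini-Hochberg adjustment over 15055 genes and a threshold of 0.05. Each standard error is the size of the log2 fold change over the root of its F statistic. Groups at 0 counts were set to 3 counts over the group, and intervals cover counting error only. Positions come from GENCODE M21, which matched 14719 tested symbols. The code was tested on simulated data in R 4.3.3. Promoter letters were read in Python 3.11.15, and plots used matplotlib 3.10.9.

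The 45 gene lists and 8 motifs, like the comparison itself, were chosen with earlier results of these data known. Named genes are the 15 largest differences in each direction (at least 10 CPM, no overlap), up to 4 called members a list and direction (at least 5 CPM), 5 genes a direction at 0 counts in one medium, and 14 fixed genes. The rule gave more entries than the text names, and the choice among them was made after their values were seen. So was that of Saa1, Isg15, Top2a, Cdc20, Chac1, Fgf21, Col1a1, Fn1, Vcam1 and the genes in the other observations. Alternatives were other scalings, filters, tests (DESeq2 1.42.0, limma 3.58.1), 4 libraries only, a replicate block and each library left out.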

Additional observations from a re-analysis of the deposited data

How the results depend on the processing

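Over 15 alternatives the number of genes higher in 4T1 medium ranged from 2521 to 3965 and of lower genes from 2183 to 3196, all within 1.5 times the reported 3542 and 2989, and no gene was called in the opposite direction. Leaving out each library in turn gave 2521 to 3466 higher and 2183 to 3063 lower genes. DESeq2 called 2646 higher and 2504 lower, and library totals alone 3965 and 2631, with 60.1% of calls higher against 54.2%. With the replicate block 3618 genes were higher and 3050 lower, 6464 of them shared with the unblocked fit. Same-numbered libraries of the tumour media deviated from their group means with a correlation of 0.069, so the numbers were not taken as pairs. Of 4230 named gene results 4155 kept direction and side of the threshold, 73 missed it and 2 reversed, both for Pdpn, which was not called: its log2 fold change was -0.03 without 4T1 replicate 2 and -0.06 without 67NR replicate 1, in a range up to 0.12 over the libraries left out. Of 1350 list counts 67 moved by over 1.5 times. The counts in brackets above name only libraries left out. Some list counts also moved under DESeq2, other scalings, other filters, limma-voom, the replicate block or the 4 tumour-medium libraries alone. With DESeq2 size factors, limma-voom, the block or those 4 libraries, for example, 2 complement genes were lower. The authors' filtered genes left 9 acute phase genes called higher, since that table lacks several of them, among them Saa3. With 2 libraries a medium and 3 residual degrees of freedom, differences in genes near 1 CPM were resolved only where large.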

Other observations

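Some neighbouring genes were called together. Among 11868 tested protein-coding genes with a position, 18 runs of at least 3 genes were called and at least 2-fold higher in 4T1 medium. Lower runs numbered 12. Over all tested genes 5.51% were called and at least 2-fold higher and 4.98% lower. The genes of a run are successive among the tested coding genes, with no limit on distance. Rgs2, Pla2g4a and Ptgs2, for example, span chr1:143999338-150108227. The number of runs expected from these shares was not tested. The longest higher run, on chromosome 11, held 6 genes, Ccl9, Ccl6, Wfdc17, Wfdc18, Wfdc21 and Heatr6. In it Wfdc17, a whey acidic protein family member, was at 205 and 196 CPM in 4T1 medium against 0.556 and 0.0973 in 67NR medium, and Wfdc18 at 106 and 99.0 against 4.82 and 5.45. Runs of 5 held the Serpina3 genes on chromosome 12 and the Ly6 genes on chromosome 15, where Ly6i was at 30.6 and 26.0 CPM against 0.324 and 0.681. A run of 4 on chromosome 6 held the complement proteases C1ra, C1s1, C1rb and C1s2, and one of 4 on chromosome 3 the epidermal Sprr2 genes, with Sprr2a1 at 15.9 and 19.2 CPM against 1.07 and 1.12. Close copies in these runs share reads, so their members are not independent.

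Lower runs included 5 Ifit genes on chromosome 19 and 4 flavin monooxygenase genes on chromosome 1, enzymes that oxidise drugs and amines. Fmo1 was at 84.0 and 81.8 CPM in 4T1 medium against 278 and 259 in 67NR medium and 146 and 141 in control medium, and Fmo2 at 0.203 and 0.218 against 8.06 and 9.98. A run of 4 on chromosome 13 held Ecm2, Aspn, Omd and Ogn, of which 3 encode small leucine-rich proteoglycans of the osteoglycin and asporin type. Aspn was at 0.338 and 0.0545 CPM against 6.62 and 4.82.

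Clca3a2 and Clca3a1, adjacent genes of the chloride channel accessory family on chromosome 3, were higher, at 1000 and 1247 CPM against 152 and 155 and at 1670 and 1949 against 560 and 582. Nos2, the inducible nitric oxide synthase, had 114 counts in the 4T1 libraries and 1 in the 67NR libraries, a ratio of 144.9 with a 95% counting interval of 25.49 to 5772. The microRNA host transcript Mir17hg was higher at 3.11 and 4.19 CPM against 1.02 and 0.730, and Mir351, of a cluster with Mir322 and Mir503, was lower at 0.811 and 0.545 against 3.43 and 3.55. Poly(A) libraries of this kind count precursors and not mature microRNAs.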
